A study of Mus musculus with 8 samples.

Results

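CD8+ T cells were selected from sorted CD45+ cells of mouse mammary tumors by a marker gate on single-cell counts. A cell was a member when it held at least 2 unique molecular identifiers (UMIs, each counting 1 captured RNA molecule) of *Cd3d*, *Cd3e* and *Cd3g* together, at least 2 of *Cd8a* and *Cd8b1* together, no UMI of *Cd4* and at most 1 of *Csf1r*, a macrophage receptor gene. The gate kept 172 of 10605 cells that passed the quality filter, and 11430 cells were deposited. The 7 gate genes chose the members, so they were left out of every comparison below.

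CD8+ T cells recognise peptides on MHC class I through the T cell receptor, of which the CD3 chains are the signaling part and CD8 the coreceptor. Once activated they kill target cells with perforin and granzymes and release interferon-γ and chemokines. Under lasting antigen exposure in tumors they are known to acquire inhibitory receptors such as PD-1, TIM-3 and LAG-3 and the transcription factor TOX, while TCF-1 and the IL-7 receptor mark naive, memory or stem-like cells.

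The tumors grew from E0771, a mouse triple-negative breast cancer line, in its parental form, or from E0771-Res1 or E0771-Res2, lines that the authors established from E0771 tumors that had relapsed after paclitaxel and anti–PD-1. Tumors were taken on day 18 after implantation. The labels give no treatment, strain or age of these mice. Each resistant group is 1 line, so its mice share that line. The data held 2 parental mice, replicates 1 and 3, and 3 mice of each resistant line. Cells were tagged per mouse and pooled, and no barcode was shared between mice. The top tag of a gated CD8+ cell held a median of 57.7% and 38.2% of its tag counts in parental replicates 1 and 3. It held 70.6%, 53.6% and 52.2% in the E0771-Res1 mice and 75.4%, 59.3% and 62.0% in the E0771-Res2 mice. How surely cells were assigned to mice was not tested.

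The 172 cells were spread unevenly over the mice. The parental mice held 47 and 15, the E0771-Res1 mice 44, 9 and 18, and the E0771-Res2 mice 8, 17 and 14. Their median depth was 9664 and 11198 UMIs per cell in parental, 10372, 9294 and 13564 in the E0771-Res1 mice, and 8481, 13663 and 12590 in the E0771-Res2 mice. Summed over the cells of a mouse, depth ran from 76654 to 537387 UMIs. Depth per cell overlapped between the groups, but the smallest sums were those of E0771-Res1 replicate 2 and E0771-Res2 replicate 1, the 2 mice with under 10 cells.

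Genes outside the gate set these cells apart from macrophages. *Trac*, the constant part of the T cell receptor α chain, had a UMI in 95.9% of the cells against 6.38% of 3433 macrophage-gated cells (*Csf1r* of at least 2 UMIs and no CD3 UMI), whose median depth was 8522 UMIs against 10630. *Nkg7*, a cytotoxic granule gene, was found in 97.1% against 13.1%. *Foxp3*, the factor of regulatory T cells, was found in 1.16% of the cells, close to the 1.05% in macrophages. The 19 genes listed for T cell identity outside the gate summed to 7149 to 12410 CPM (the usual counts-per-million scale, over all genes of the gated cells of a mouse) in CD8+ T cells, 5170 to 6620 CPM in CD4+ T cells, 7462 to 12510 CPM in NK cells and 885 to 1253 CPM in macrophage-gated cells. That sum did not tell CD8+ T cells from NK cells. By the edgeR test below, 8 of the 19 genes were higher in CD8+ than in CD4+ T cells. *Cd247*, *Cd2*, *Cd5* and *Cd6* were lower, where 21.1% of all genes tested were called. Against NK cells 10 of 18 tested were higher and 2 lower (*Ccl5* and *Ctsw*), where 11.4% of all genes were called. Genes listed for other cells were found too. Of the NK list 10 of 11 had counts in some mouse, led by *Fcer1g*, with a summed level of 565 to 2622 CPM over the 8 mice, and *Klra4* at 0. Of the dendritic list 10 of 12 had counts, with *Clec9a* and *Xcr1* at 0. Of the B cell list 5 of 8 had counts, at 25.5 to 104 CPM, with *Ms4a1* and *Pax5* among those at 0. *Ighm* led the B cell list, except in E0771-Res1 replicate 1 and E0771-Res2 replicate 2, where *Igkc* did. Of the neutrophil list 3 of 6 had counts, at 0 to 65.2 CPM, with *Retnlg*, *Cxcr2* and *Mmp9* at 0.

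Myeloid RNA was present in these cells. All 17 of 17 macrophage and monocyte genes had counts, led by *Plac8*, which lymphocytes also express, in 6 of the 8 mice and by *Lyz2* in E0771-Res2 replicates 1 and 3. Their sum was 3608 and 2414 CPM in parental, 5367, 2907 and 3185 in the E0771-Res1 mice, and 7932, 3555 and 4158 in the E0771-Res2 mice. E0771-Res2 replicate 1 was the highest and the other 7 mice lay between 2414 and 5367. *Lyz2*, an abundant macrophage gene, had a UMI in 94.2% of the gated cells against 99.9% of macrophages. The edges of the gate were thin for CD8 and wide for *Csf1r*. Only 5 members had exactly 2 CD8 UMIs. Of the 24 cells with 1 CD8 UMI just outside, 33.3% held *Foxp3*. The *Csf1r* limit kept out 20 cells with 2 UMIs of it and 36 with more, although 95% of those 20 held *Trac*.

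The first question was whether CD8+ T cells were as frequent in resistant as in parental tumors. They were 4.19% and 2.48% of kept cells in the parental mice, 2.18%, 1.49% and 1.92% in the E0771-Res1 mice and 0.434%, 1.12% and 0.714% in E0771-Res2. Each parental mouse lay above each resistant mouse, and each E0771-Res1 mouse above each E0771-Res2 mouse. Counting error alone allows 1.39% to 4.06% for the lower parental mouse and 1.59% to 2.91% for the highest resistant one (exact binomial 95% intervals). The mean was 3.33% ± 1.21 (SD, n = 2) in parental and 1.31% ± 0.681 (n = 6) in resistant tumors, a difference of -2.02 percentage points.

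With gated T cells as the denominator the groups were apart at full depth. CD8+ cells made up 43.1% and 39.5% of the gated T cells (CD3 of at least 2 UMIs and *Csf1r* of at most 1) in parental, 25.7%, 21.4% and 22% in the E0771-Res1 mice, and 9.41%, 14.9% and 13.3% in the E0771-Res2 mice. No 2 groups overlapped. The means were 41.3% ± 2.58 (SD, n = 2) in parental, 23% ± 2.35 (n = 3) in the E0771-Res1 mice and 12.6% ± 2.83 (n = 3) in the E0771-Res2 mice. Of 746 gated T cells, 297 had no CD8 or *Cd4* UMI, and 50.2% of these held *Trac*. In parental mice 47 and 31 of 109 and 15 and 11 of 38 gated T cells were CD8+ and CD4+. In E0771-Res1 mice they were 44 and 54 of 171, 9 and 8 of 42 and 18 and 24 of 82. In E0771-Res2 mice they were 8 and 32 of 85, 17 and 34 of 114 and 14 and 33 of 105. The rest, in neither gate, was a larger part in each resistant mouse, and its effect on the share was not tested. Per CD4+ T cell (at least 1 *Cd4* and no CD8 UMI) there were 1.52 and 1.36 CD8+ cells in parental, 0.815, 1.13 and 0.750 in the E0771-Res1 mice, and 0.250, 0.500 and 0.424 in the E0771-Res2 mice, again without overlap. All gated T cells together were 8.00% ± 2.43 of kept cells in the 2 parental and 6.95% ± 1.67 in the 6 resistant mice, and CD4+ cells were 2.29% ± 0.668 and 2.04% ± 0.538. Both of these overlapped between the groups.

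The exact permutation test cannot reach 0.05 with these numbers of mice. For each of the 3 measures the two-sided exact permutation test gave p = 0.0714 (n = 2 and 6), the smallest that 28 splits of the mice allow, and 0.0714 adjusted over the 3. E0771-Res2 against E0771-Res1 gave p = 0.1 for each, and each line against parental p = 0.2, by the same exact test, again the smallest possible. With a single CD8 UMI required, the parental and resistant mice overlapped in the share of kept cells and in the ratio to CD4+ cells (exact p = 0.143 for each), and they overlapped in that ratio among cells with little macrophage RNA (exact p = 0.214). When each cell was thinned to 2000 UMIs before gating, leaving out 874 shallower kept cells, the groups overlapped in all 3 measures. CD8+ cells then made up 27.0% of T cells in parental and 14.7% in resistant mice, a difference of -12.3 points against -23.5 at full depth (exact p = 0.214), with exact p = 0.143 for the share of kept cells and 0.214 for the ratio to CD4+ cells. Fewer CD8+ cells and more cells of other kinds cannot be told apart in a share.

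**Figure D1:**
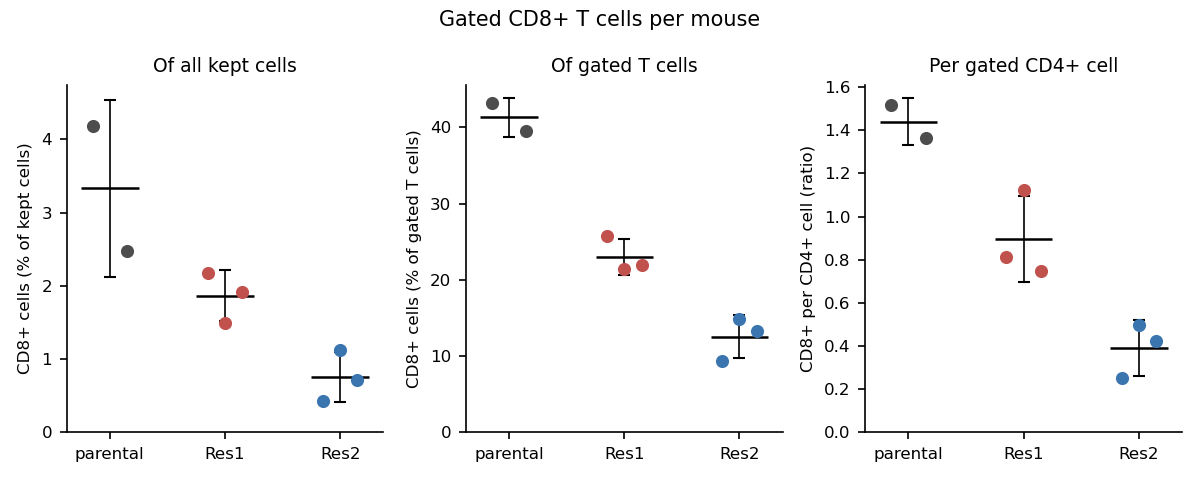
Gated CD8+ T cells in each mouse, at full depth, as a percentage of kept cells, as a percentage of gated T cells, and per gated CD4+ T cell. Points are mice, lines are means and bars 1 SD. The 2 parental mice (4.19% and 2.48% of kept cells) sit above all 6 resistant mice in each panel, and the 3 E0771-Res2 mice are lowest.

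What set CD8+ T cells apart from CD4+ T cells was tested on counts summed per mouse and gate in the 6 mice with at least 10 cells of each kind. edgeR's quasi-likelihood test with the mouse as a block called 679 of 3216 genes (21.1%) at an adjusted p under 0.05, 310 higher and 369 lower in CD8+ cells. The median log2 difference over all genes was -0.01. Cytotoxic genes had 15 of 22 tested members higher, 1 lower (*Srgn*, which encodes the granule proteoglycan serglycin) and a list median of 1.46.

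Among the genes with the largest differences were lectin-like receptors of a family best known from NK cells. *Klrd1*, which encodes CD94, stood at 811 and 735 CPM in the CD8+ cells of the parental mice, 752 and 1030 in E0771-Res1 replicates 1 and 3, and 819 and 841 in E0771-Res2 replicates 2 and 3. In the CD4+ cells of the same mice it stood at 70.9, 39.3, 107, 50.9, 101 and 87.0 CPM. The lowest CD8+ value exceeded the highest CD4+ value, and the log2 difference was 3.47 ± 0.198 (SE, edgeR adjusted p = 1.77e-07). *Klrc1*, which encodes NKG2A, the inhibitory partner of CD94, ran from 175 to 266 CPM in CD8+ and from 0 to 18 CPM in CD4+ cells (4.06 ± 0.267). *Klre1*, of the same family, differed by 3.83 ± 0.293, *Klrk1*, which encodes the activating receptor NKG2D, by 2.58 ± 0.203, and the receptor gene *Cd160* by 3.72 ± 0.387. Reads of such related receptor genes could be split between copies in counting, so the size of each difference is less certain than the direction of the group.

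Killing and cytokine genes were higher as well. *Prf1*, which encodes perforin, was at 396, 383, 967, 294, 168 and 362 CPM in CD8+ cells against 19.7, 9.82, 38.2, 15.3, 180 and 24.0 in CD4+ cells, in the same order of mice. Only E0771-Res2 replicate 2 failed to show the difference, and the fitted value was 3.38 ± 0.516 (edgeR adjusted p = 0.000616). *Ifng* was at 447, 383, 742, 393, 468 and 448 CPM against 47.3, 0, 134, 35.6, 127 and 105 CPM, higher in each of the 6 mice, by 2.75 ± 0.273. *Nkg7* differed by 2.60 ± 0.275. The chemokine genes *Xcl1*, *Ccl3*, *Ccl4* and *Ccl5* were higher by 2.96, 1.84, 1.27 and 0.92, and *Serpinb9*, whose product inhibits granzyme B, by 1.66. *Gzmb* and *Gzma*, which encode granzymes B and A, did not pass the test. *Gzmb* differed by 0.87 ± 0.300 (edgeR adjusted p = 0.0543) and *Gzma* by 0.07 ± 0.641, while *Gzmk* was too low for the test.

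Promoter sequence was read for the 15 cytotoxic genes that were higher, because RUNX3, a transcription factor central to CD8+ lineage choice, belonged to the genes that were higher in these cells (*Runx3*, 1.06 ± 0.169, edgeR adjusted p = 0.000769), as did T-bet (*Tbx21*, 0.92 ± 0.288). RefSeq (GRCm38.p6) gave a window of 250 bases before the start for 11 of the 15. The letters TGTGGT or, on the other strand, ACCACA, the core that RUNX factors recognise, occurred in 8 of these 11 windows (72.7%) and in 14.2% of 27025 windows of the same length. They occurred in 14.9% of the windows of all genes higher in CD8+ cells, 12.4% of those lower and 11.2% of all genes tested. TCACAC or GTGTGA, a T-box core whose letters partly repeat the RUNX core, so that matches of both may overlap, occurred in 2 of the 11 (18.2%) against 12.2% of the 27025. A match is a run of letters, not a measured binding site. Shown 5′ to 3′ in the direction of the gene are the lectin-like receptor genes with a match, which lie close together on chromosome 6 and share the pattern of expression, then *Nkg7*, which has both cores, and *Ifng*, which has neither, with matches in capitals:
Klrc1: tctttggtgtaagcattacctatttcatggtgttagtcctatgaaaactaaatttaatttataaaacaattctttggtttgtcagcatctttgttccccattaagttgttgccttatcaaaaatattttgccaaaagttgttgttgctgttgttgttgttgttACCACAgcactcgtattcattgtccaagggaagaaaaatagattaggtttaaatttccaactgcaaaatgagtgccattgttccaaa
Klrk1: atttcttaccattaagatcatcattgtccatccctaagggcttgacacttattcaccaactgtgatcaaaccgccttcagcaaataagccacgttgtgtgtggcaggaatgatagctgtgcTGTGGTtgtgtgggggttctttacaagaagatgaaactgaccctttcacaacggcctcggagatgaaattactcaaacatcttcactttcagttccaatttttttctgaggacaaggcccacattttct
Klre1: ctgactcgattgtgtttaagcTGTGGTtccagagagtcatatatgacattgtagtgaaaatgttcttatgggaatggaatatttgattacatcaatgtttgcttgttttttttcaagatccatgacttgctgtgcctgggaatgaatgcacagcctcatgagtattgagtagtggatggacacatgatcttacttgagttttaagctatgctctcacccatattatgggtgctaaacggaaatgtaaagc
Nkg7: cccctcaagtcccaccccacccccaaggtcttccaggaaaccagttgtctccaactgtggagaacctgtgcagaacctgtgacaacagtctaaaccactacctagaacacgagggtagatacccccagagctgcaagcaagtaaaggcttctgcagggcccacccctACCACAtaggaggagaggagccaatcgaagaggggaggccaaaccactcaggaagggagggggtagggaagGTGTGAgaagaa
Ifng: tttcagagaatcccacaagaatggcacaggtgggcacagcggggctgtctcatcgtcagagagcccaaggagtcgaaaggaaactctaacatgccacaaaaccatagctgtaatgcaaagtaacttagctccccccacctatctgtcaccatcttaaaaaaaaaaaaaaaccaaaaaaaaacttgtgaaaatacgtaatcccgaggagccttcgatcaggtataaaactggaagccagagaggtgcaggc
The windows lie at chr6:129678974-129679223 (*Klrc1*, minus strand), chr6:129623865-129624114 (*Klrk1*, minus), chr6:129577963-129578212 (*Klre1*, plus), chr7:43436888-43437137 (*Nkg7*, plus) and chr10:118440796-118441045 (*Ifng*, plus). Annotations differ in the start of 2 of these genes. In GENCODE *Klre1* starts at 129577905, so that its RefSeq window lies inside the gene, and *Nkg7* at 43437073, inside its window.

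Checkpoint genes divided. Of 16 tested, 6 were higher and 5 lower in CD8+ than in CD4+ cells. *Pdcd1*, which encodes PD-1, was at 147, 216, 130, 164, 201 and 148 CPM in CD8+ cells against 82.7, 29.5, 70.7, 45.8, 26.3 and 45.0 in CD4+ cells. Every CD8+ value lay above every CD4+ value, and the difference was 1.66 ± 0.258 (edgeR adjusted p = 0.000647). *Lag3* was higher by 1.35 ± 0.214, *Tox* by 1.15 ± 0.173, *Nr4a2* by 1.99 ± 0.198 and *Rgs16*, a regulator of G protein signaling, by 1.65 ± 0.192. *Havcr2*, which encodes TIM-3, differed by 0.35 ± 0.211 (edgeR adjusted p = 0.248), with 70.7 to 166 CPM in CD8+ and 58.9 to 148 in CD4+ cells.

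The 5 lower genes of that list, *Ctla4*, *Icos*, *Tnfrsf9*, *Tnfrsf4* and *Tnfrsf18*, are also abundant in regulatory T cells, and all 6 of 6 tested members of the regulatory T cell list, which shares *Ctla4*, *Tnfrsf4* and *Tnfrsf18* with it, were lower in CD8+ cells. *Foxp3* had 2 UMIs in the CD8+ cells of these 6 mice and 250 in the CD4+ cells, a ratio of 143 with a 95% counting interval of 39.1 to 1190. *Ctla4* ran from 65.5 to 159 CPM in CD8+ and from 491 to 1050 CPM in CD4+ cells (-2.61 ± 0.161, edgeR adjusted p = 1.98e-07). *Il2ra*, which encodes CD25, differed by -2.94 ± 0.304. By these genes the CD4+ gate held regulatory T cells. Also lower were *Cd81*, a tetraspanin gene, by -3.85 ± 0.331, *Cxcr3*, a chemokine receptor gene, by -3.09 ± 0.302, and *Arhgap31*, which encodes a GTPase-activating protein, by -3.03 ± 0.328. *Nrgn*, which encodes neurogranin, was higher by 2.99 ± 0.430.

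Naive and memory genes were lower, 4 of 7 tested, among them *Ccr7* and *Ltb*, with none higher. *Il7r*, which encodes the interleukin-7 receptor α chain, was at 76.3, 64.8, 64.9, 36.8, 32.7 and 56.1 CPM in CD8+ cells against 146, 118, 147, 132, 175 and 183 in CD4+ cells, without overlap (-1.32 ± 0.211, edgeR adjusted p = 0.000769). *Tcf7* was too low for this test. Of genes of tissue residence and migration 3 of 15 were higher and 6 lower. *Cxcr6*, a chemokine receptor of tissue T cells, was at 164, 346, 401, 270, 150 and 255 CPM against 82.7, 19.6, 97.5, 96.7, 39.5 and 108 CPM (1.81 ± 0.234). Effector transcription factors split, with 8 of 16 higher, such as *Irf8* (1.15 ± 0.153) and *Stat4* (0.78 ± 0.258), and 7 lower, such as *Maf* (-2.90 ± 0.269) and *Ikzf2* (-1.78 ± 0.197), which encodes Helios. T cell receptor signaling genes had 4 of 20 higher, among them the phosphatase gene *Ptpn22* (0.59 ± 0.151), and 5 lower, and *Lat*, which encodes an adaptor of that pathway, differed by 0.07 ± 0.146 (edgeR adjusted p = 0.895). Receptor genes for interleukin-18 (*Il18r1*, 0.90, and *Il18rap*, 1.69) and the interleukin-2 receptor β chain (*Il2rb*, 0.70) were higher.

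Interferon response genes were lower in CD8+ cells, 21 of 32 tested and none higher, with a list median of -0.84. *Ifit1* ran from 30.6 to 114 CPM in CD8+ and from 105 to 299 in CD4+ cells (-1.36 ± 0.328, edgeR adjusted p = 0.00982), lower in 5 of the 6 mice. *Isg15*, which encodes a ubiquitin-like modifier, was also lower in 5 of the 6 mice, by -0.99 ± 0.243. Genes of MHC class I and peptide loading had 5 of 18 lower, such as *Tap1*, a peptide transporter gene (-0.68 ± 0.141), and none higher. Cell cycle genes were higher, 12 of 20 tested and none lower, among them *Top2a* (0.72 ± 0.217), *Mcm5* (0.89 ± 0.285) and *Cdk1* (0.98 ± 0.280). *Mki67* differed by 0.36 ± 0.237 (edgeR adjusted p = 0.29). Nuclear genes of oxidative phosphorylation had 7 of 46 higher and none lower, and the list of C1q receptor and mitochondrial genes 4 of 13 higher, led in size by the chaperonin gene *Hspd1* (1.22 ± 0.215). *C1qbp*, which encodes the mitochondrial C1q-binding protein gC1qR and which the study followed in CD8+ T cells, was at 127, 162, 81.1, 114, 103 and 122 CPM in CD8+ cells against 67.0, 39.3, 93.7, 61.1, 43.9 and 45.0 in CD4+ cells. It was higher in 5 of the 6 mice, E0771-Res1 replicate 1 being the exception, by 0.94 ± 0.250 (edgeR adjusted p = 0.0167).

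Myeloid RNA moved with this comparison. Of 13 tested macrophage genes 8 were lower in CD8+ cells, and the macrophage list summed to 3608, 2414, 5367, 3185, 3555 and 4158 CPM in CD8+ cells against 4490, 9484, 9575, 3014, 7036 and 13010 in CD4+ cells. When both gates were limited to cells without *Csf1r* and with under 1% of UMIs from that list, 4 mice remained and 297 of 2747 genes (10.8%) were called. Cytotoxic genes kept the same 15 higher calls and the checkpoint genes the same 6 higher and 5 lower. Of 29 interferon response genes 15 were lower, *Isg15* but not *Ifit1* among them. Of effector transcription factors 2 of 15 were then higher, *Runx3* and *Irf8*, and *Tbx21* and *Stat4* were not called. Of 15 cytokine receptor and signaling genes 1 was higher, *Il18rap*, without calls for *Il18r1* or *Il2rb*. T cell receptor signaling genes had 2 of 18 higher and 3 lower, *Ptpn22* not among them. Oxidative phosphorylation genes had 3 of 46 higher, and the list of C1q receptor and mitochondrial genes 2 of 12, *Hspd1* and *Hspe1*. Of 6 naive and memory genes 2 were lower, *Il7r* and *Ltb*. Cell cycle genes had 1 of 20 higher, and *C1qbp* missed the threshold (0.76, edgeR adjusted p = 0.192), as it also did without E0771-Res2 replicate 3 (0.83, adjusted p = 0.0511), within a range of 0.000621 to 0.192 over 11 alternatives. By DESeq2 395 genes were called.

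**Figure D2:**
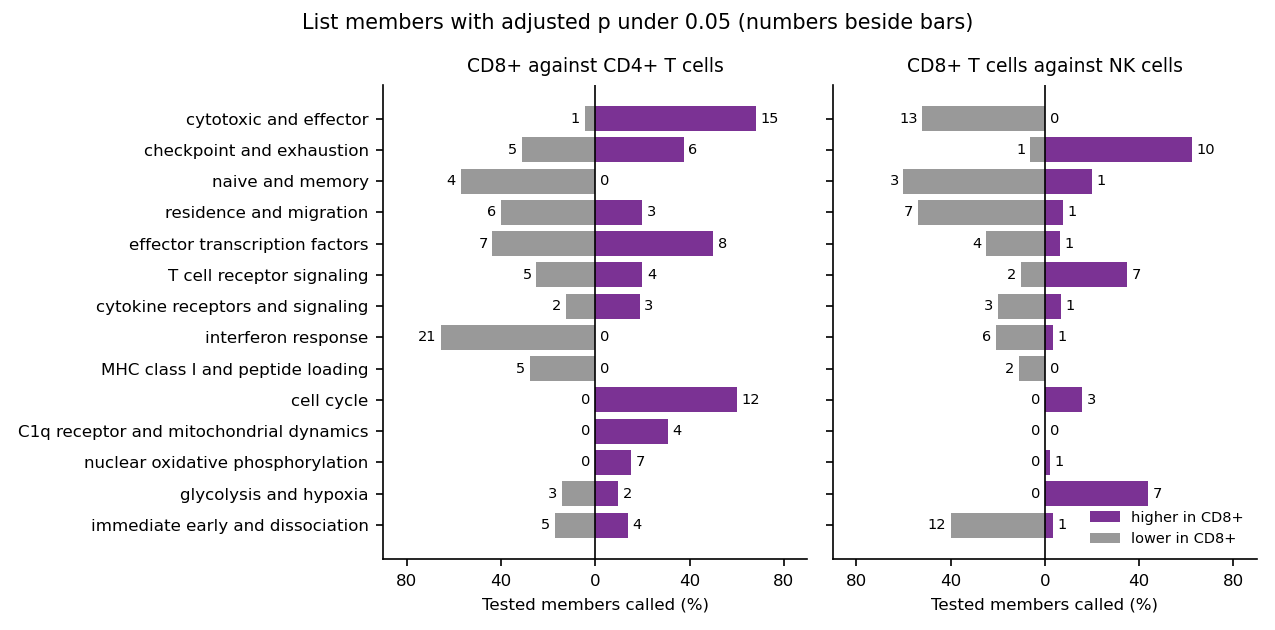
Share of the tested members of each gene list that were called higher (to the right) or lower (to the left) in gated CD8+ T cells than in CD4+ T cells or NK cells, by edgeR's quasi-likelihood test at an adjusted p under 0.05, with the number of genes beside each bar. Cytotoxic genes are higher than in CD4+ cells (15 members) and lower than in NK cells (13 members).

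NK cells (at least 2 UMIs of *Ncr1* and *Klrb1c* together and at most 1 of CD3) share the killing machinery without the T cell receptor. In the same 6 mice edgeR's quasi-likelihood test, again with the mouse as a block, called 317 of 2784 genes (11.4%), 129 higher and 188 lower in CD8+ T cells, with a median over all genes of 0.01. Of 25 tested cytotoxic genes 13 were lower in CD8+ cells and none higher, with a list median of -0.82. The same list thus stood above CD4+ cells and below NK cells.

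Granzymes were among the members furthest below NK cells. *Gzma* was at 96.8, 21.6, 819, 94.0, 18.7 and 245 CPM in CD8+ T cells against 7220, 6500, 4870, 5460, 6450 and 7070 CPM in NK cells (-5.60 ± 0.556, edgeR adjusted p = 8.4e-06). The NK values varied little and the CD8+ values widely. *Gzmb* was at 428, 551, 2170, 810, 444 and 938 CPM against 3530, 3000, 3000, 2820, 3410 and 4110 CPM (-2.16 ± 0.267), with no overlap. *Gzmc* differed by -6.42 ± 0.403, *Prf1* by -1.28 ± 0.276 and *Ccl5* by -0.98 ± 0.213. *Gzmb* and *Gzmc* lie in a cluster of related granzyme genes on chromosome 14, so their counts may be split between copies. *Nkg7* (-0.05 ± 0.128), *Ifng* (0.01 ± 0.216) and *Cst7* (0.00 ± 0.139) showed differences below 2 SE. Of 9 tested genes of the NK list 8 were lower in CD8+ cells (list median -5.06). *Klra4* had no UMI in 1870321 UMIs of CD8+ cells, at least 155-fold lower than its 249 CPM in NK cells when 3 UMIs are taken as the floor over these mice. *Klra8* had 2 UMIs there against 337 in NK cells, a ratio of 216 (95% counting interval 59.3 to 1790).

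Genes of the T cell receptor and of checkpoints were higher than in NK cells. *Trac* was at 504, 702, 685, 626, 515 and 770 CPM against 22.6, 18.2, 19.3, 15.2, 5.90 and 15.6 CPM (5.26 ± 0.207, edgeR adjusted p = 9.26e-10). The scavenger-like receptor genes *Cd6* and *Cd5* had 3 and 2 UMIs in NK cells, and were 65.8-fold (22.3 to 321) and 66.7-fold (18.2 to 555) higher in CD8+ cells. *Bcl11b*, a T lineage transcription factor gene, differed by 4.23 ± 0.473. T cell receptor signaling genes had 7 of 20 higher and 2 lower, with *Lat* at 2.71 ± 0.214 and *Zap70*, which encodes the kinase that binds the receptor chains, at 0.86 ± 0.189. Of 16 checkpoint genes 10 were higher and 1 was lower (*Cd244a*). *Pdcd1* differed by 3.74 ± 0.356, *Tnfrsf4*, which encodes OX40, by 4.05 ± 0.431, *Ctla4* by 2.83 ± 0.282, *Tox* by 2.68 ± 0.309, *Havcr2* by 2.35 ± 0.283 and *Lag3* by 1.71 ± 0.195. *Pdcd1*, *Lag3* and *Tox* were thus higher than in both other gates, whereas *Ctla4* lay between them.

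Glycolysis genes were higher than in NK cells, 7 of 16 tested, with *Gapdh* at 0.89 ± 0.123, *Pgk1* at 0.76 ± 0.180 and *Ldha* at 0.53 ± 0.124. Immediate early genes were lower, 12 of 30 with 1 higher, among them *Fos* (-0.93 ± 0.186) and *Jun* (-1.16 ± 0.260). *Eomes*, a T-box factor of NK cells, was lower by -3.25 ± 0.276. *C1qbp* differed by 0.09 ± 0.222 (edgeR adjusted p = 0.879). Macrophage genes moved with this comparison as well, since 3 of 13 tested (*Spp1*, *Lyz2* and *Cd14*) were lower in CD8+ T cells and the list summed to 2414 to 5367 CPM in CD8+ T cells and 3222 to 11120 CPM in NK cells of these 6 mice. Among cells with little macrophage RNA, in 5 mice, 170 of 2575 genes (6.60%) were called, and then 11 of 22 cytotoxic genes were lower (*Ccl5* no longer, edgeR adjusted p = 0.0564), 9 of 14 checkpoint genes higher and 4 of 16 glycolysis genes higher. Of the immediate early genes, 6 of 29 were then lower, *Fos* and *Jun* among them, and 1 was higher. T cell receptor signaling genes then had 4 of 19 higher, *Lat* among them, and 3 lower. *Zap70* and *Ldha* were not among the genes called.

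**Figure D3:**
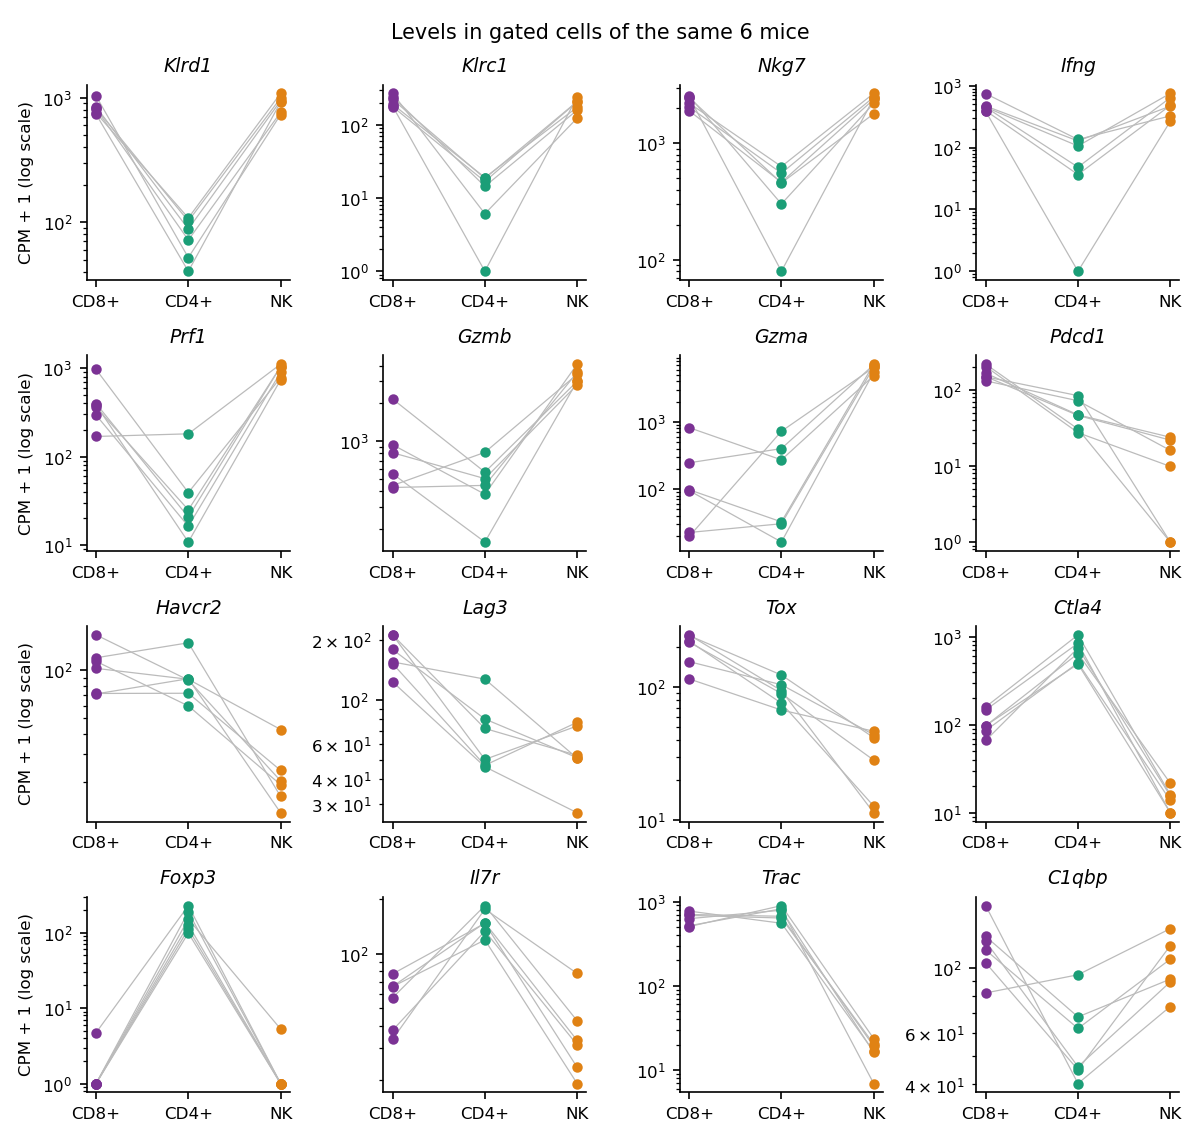
Levels of 16 genes in gated CD8+ T cells, CD4+ T cells and NK cells of the same 6 mice, as CPM + 1 on a log axis, with 1 point per mouse and gate and grey lines joining the gates of a mouse. *Klrd1* is at 735 CPM or more in the CD8+ cells of each mouse and at 107 CPM or less in CD4+ cells, while *Gzma* is at 4870 CPM or more in NK cells.

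The cells also differed among themselves. To compare shares of cells across depths, each was thinned to 5500 UMIs, which left 156 cells of the 8 mice, and 6 mice kept at least 10. The percentages below are over the 156 cells. *Ifng* had a UMI in 64.1% of them (79.1% before thinning, 2.37% in thinned macrophages), *Prf1* in 63.5% (2.48% in macrophages), *Tox* in 61.5% (0.709%), *Gzmb* in 56.4% (59.3% before thinning, 6.48% in macrophages), *Pdcd1* in 48.1% (62.2% before, 0.957%) and *Mki67*, a proliferation marker, in 34.6% (40.1% before, 5.07%). All of these stood well above the macrophage share. *Havcr2* was found in 38.5% (51.7% before), but macrophages, which express it, had 32.3%. *Tcf7*, which encodes TCF-1, was found in 11.5% (15.7% before, 0.496% in macrophages). *C1qbp* was found in 39.1% against 27.1% of macrophages. *Gzmk* was found in 22.4% of the cells and *Gzma* in 12.8%, the latter near the 8.65% of macrophages.

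Among the 60 thinned cells with *Havcr2*, 73.3% also held *Gzmb*, against 45.8% of the 96 without it. *Tcf7* and *Havcr2* occurred together in 2 cells. Of 75 cells with *Pdcd1*, 45.3% held *Mki67*, against 24.7% of the 81 without it. Other pairs hardly differed. *Havcr2* was found in 37.3% of the cells with *Pdcd1* and 39.5% of those without it, and *Gzmb* in 56.0% and 56.8%. *Mki67* was found in 33.3% of the cells with *Havcr2* and 35.4% of those without it. Cells of 1 mouse are not replicates, and these pairings are given without a test. Between tumors, none of the 7 shares tested differed beyond the spread of the mice. *Gzmb* was found in 63.3% ± 21.7 (SD, n = 4) of thinned cells in resistant and 52.7% ± 10.3 (n = 2) in parental mice, and *Pdcd1* in 50.6% ± 6.54 and 49.3% ± 15.1. The two-sided exact permutation p ran from 0.533 to 1.0 over the 7 genes (1.0 adjusted), in a design of 15 splits that cannot give less than 0.133.

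The study asked how T cells fared in resistant tumors, so the summed counts of the CD8+ cells were compared between tumors in the 6 mice with at least 10 such cells. edgeR's quasi-likelihood test called 0 of 3446 genes (0%) between both resistant lines and parental tumors, where 146 had an unadjusted p under 0.05, and DESeq2 called 0 as well. With no filter on low counts edgeR called 28 of 12125 genes. No list had a member called, and list medians lay between -0.35 (naive and memory genes) and 0.24 (glycolysis) among the functional lists, against -0.01 for all genes. Markers of other cells went both ways. Medians were 0.49 over 13 macrophage genes, 0.56 over 4 NK genes, 0.31 over 4 dendritic genes and 0.29 for 1 gamma delta T cell gene. They were -0.11 over 4 CD4+ and regulatory T cell genes and -1.20 for 1 B cell gene. The part of other cells in the comparison was not tested. E0771-Res1 against parental gave 1 gene of 3446 (0.029%), E0771-Res2 against parental 0 (0%, with 133 at an unadjusted p under 0.05 and 0 by DESeq2), and E0771-Res2 against E0771-Res1 gave 5 (0.145%). These counts moved with single mice. Without E0771-Res1 replicate 3 the 4 comparisons, in this order, had 10, 20, 5 and 17 calls, without parental replicate 1 they had 6, 10, 4 and 8, and without parental replicate 3 they had 2, 6, 1 and 12.

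None of the tested genes that the study named for CD8+ T cells passed the test. For *Ifng*, *Pdcd1*, *Havcr2*, *Il2ra*, *Dnm1l* and *Opa1* the study measured the proteins, in CD8+ T cells given C1q in culture. For *C1qbp* it showed RNA across T cells and NK cells. The values here compare RNA between tumors, a different measure. *C1qbp* was at 127 and 162 CPM in parental, 81.1, 82.4 and 114 in the E0771-Res1 mice, and 91.3, 103 and 122 CPM in the E0771-Res2 mice. The lower parental value lay just above the highest resistant one, and the log2 difference was -0.42 ± 0.254 (edgeR adjusted p = 0.997). *Ifng* was at 447 and 383 CPM in parental, 742, 1080 and 393 in the E0771-Res1 mice and 261, 468 and 448 in the E0771-Res2 mice (0.32 ± 0.250, adjusted p = 0.997). *Pdcd1* differed by -0.12 ± 0.246 and *Havcr2* by 0.39 ± 0.302, both with overlapping groups. *Il2ra* and the mitochondrial dynamics genes *Dnm1l* and *Opa1* had too few counts for the test. *Dnm1l*, whose product drives mitochondrial fission, was at 44.7 and 37.8 CPM in parental, 36.5, 35.3 and 36.8 in the E0771-Res1 mice and 26.1, 18.7 and 10.2 in the E0771-Res2 mice.

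Effector and checkpoint genes likewise stayed short of the threshold. *Gzmb* was at 428 and 551 CPM in parental, 2170, 812 and 810 in the E0771-Res1 mice and 183, 444 and 938 in the E0771-Res2 mice. Each E0771-Res1 mouse lay above both parental mice, with replicate 1 far above the rest, but the E0771-Res2 mice lay on both sides, and the difference for both lines was 1.10 ± 0.369 (edgeR adjusted p = 0.981). *Prf1* (0.10 ± 0.386), *Nkg7* (-0.05 ± 0.157), *Lag3* (-0.07 ± 0.252), *Ctla4* (-0.38 ± 0.312), *Tox* (-0.35 ± 0.222), *Tcf7* (-0.66 ± 0.629) and *Mki67* (0.27 ± 0.361) all had adjusted p = 0.997 by edgeR. Chosen after its values were seen, *Rgs1*, a regulator of G protein signaling found in tissue T cells, had the smallest p of the 3446 genes. It was at 519 and 616 CPM in parental, 1270, 1330 and 998 in the E0771-Res1 mice and 2200, 1130 and 1300 CPM in the E0771-Res2 mice. All 6 resistant mice lay above both parental mice, yet the difference of 1.09 ± 0.200 did not pass (edgeR adjusted p = 0.326). Such separation was common. Over the 6 tested mice, 437 of the 3446 genes had no overlap between resistant and parental mice, and 1123 none between E0771-Res1 and parental mice. In the CD4+ cells *Rgs1* was at 819 and 1200 CPM in parental against 1160 to 2500 CPM in the resistant mice, with overlap. In macrophage-gated cells it was at 1020 and 1040 CPM in parental, 1320, 952 and 1060 in the E0771-Res1 mice and 1980, 1700 and 1840 CPM in the E0771-Res2 mice. Their part in the CD8+ values was not tested. *Itga4*, an integrin gene, also chosen after its values were seen, went the other way, at 238 and 292 CPM in parental, 138, 106 and 106 in the E0771-Res1 mice and 170, 168 and 153 in the E0771-Res2 mice (-0.86 ± 0.219, edgeR adjusted p = 0.981).

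**Figure D4:**
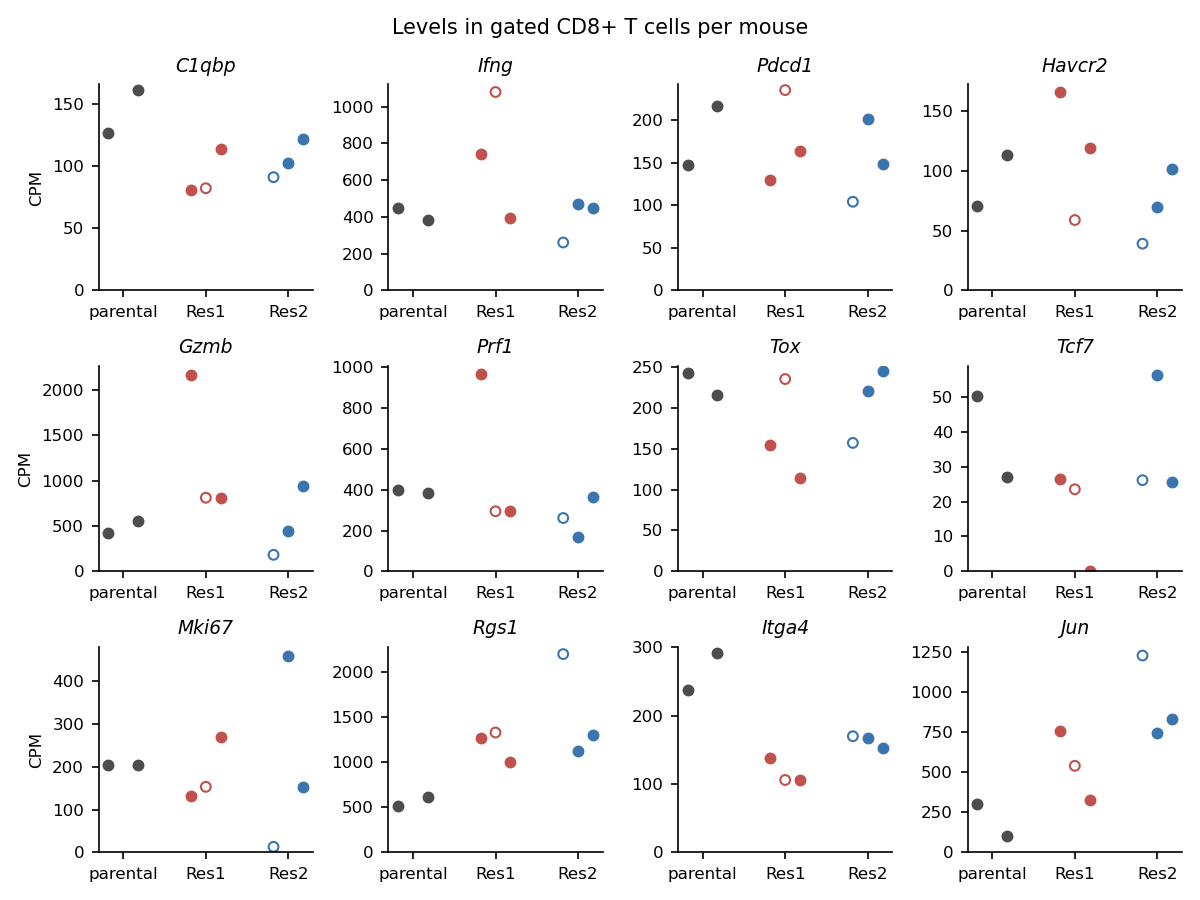
Levels of 12 genes in gated CD8+ T cells by tumor, in CPM, with 1 point per mouse. Open points are the 2 mice with under 10 cells, which were left out of the tests. *Rgs1* is at 998 CPM or more in each resistant mouse and at 519 and 616 CPM in the parental mice, and none of the 12 genes passed the test of resistant against parental.

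The calls between the lines were MHC class II genes and 1 granzyme. *H2-Ab1*, an MHC class II β chain gene that antigen-presenting cells express, was at 253 and 86.4 CPM in parental, 789, 141 and 1270 in the E0771-Res1 mice and 39.1, 168 and 148 in the E0771-Res2 mice. E0771-Res1 replicates 1 and 3 were high, and replicate 2, left out of the test for its 9 cells, was as low as the E0771-Res2 mice. *H2-Ab1* was 2.46 ± 0.374 higher in E0771-Res1 than in parental tumors (edgeR adjusted p = 0.045). In E0771-Res2 against E0771-Res1 *H2-Aa* differed by -2.65 ± 0.288, *H2-Eb1* by -3.20 ± 0.361, *H2-Ab1* by -2.64 ± 0.395 and *Cd74*, the class II invariant chain, by -2.52 ± 0.390 (edgeR adjusted p from 0.000811 to 0.0137).

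Much of this RNA lay in few cells. Summed over *H2-Aa*, *H2-Ab1*, *H2-Eb1* and *Cd74*, the median cell held 6.0 and 4.0 UMIs in the parental mice, 6.0, 3.0 and 4.5 in the E0771-Res1 mice and 6.5, 6.0 and 5.0 in the E0771-Res2 mice. In E0771-Res1 replicate 3, 1 cell held 1304 of 1599 such UMIs (81.6%), at a depth of 39619 UMIs against a median of 13564. In E0771-Res1 replicate 1 the top cell held 395 of 1662 (23.8%). The whole dendritic cell list, led by *Cd74*, summed to 1615 and 1345 CPM in parental, 3374, 789 and 6555 in the E0771-Res1 mice and 796, 767 and 734 in the E0771-Res2 mice. Between 4 and 10 of its 12 genes had counts in a mouse, and *Clec9a* and *Xcr1* had none. In macrophage-gated cells the same list summed to 14840 and 13830 CPM in parental and 17110, 10020 and 20100 CPM in the E0771-Res1 mice against 7647, 7308 and 7268 CPM in the E0771-Res2 mice. E0771-Res1 replicate 3 was the highest mouse in macrophages, in NK cells (6093 CPM) and in CD4+ cells (10990 CPM), as it was in CD8+ cells. The part that other cells captured with a T cell play in these calls was not tested. Without cells of over 2 times the median depth of their mouse, neither comparison had a call. *H2-Ab1* then differed by 1.42 between E0771-Res1 and parental tumors (edgeR adjusted p = 0.996). With little macrophage RNA it differed by 3.24 (edgeR adjusted p = 0.0402). Its call against parental tumors was lost in 8 of 19 alternatives, among them all deposited cells, a stricter gate and a looser gate. Nor was any gene called between E0771-Res2 and E0771-Res1 with a looser gate, without the *Csf1r* limit, with little macrophage RNA or over mice with at least 5 cells, and without E0771-Res2 replicate 2 or replicate 3 *H2-Ab1* missed the threshold there (edgeR adjusted p = 0.122 and 0.124), as did *Cd74*.

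*Gzmf*, a granzyme gene of the chromosome 14 cluster, was as uneven. E0771-Res1 replicate 1 had 260 UMIs in 3 cells, 194 of them in 1, and replicate 3 had 39 in 2 cells. The parental mice had 1 and 8 UMIs, and E0771-Res1 replicate 2 and all 3 E0771-Res2 mice had none. Against a floor of 3 UMIs over the 2 tested E0771-Res2 mice, 7.32 CPM, the level in the tested E0771-Res1 mice, 405 CPM, was at least 55.4-fold higher (edgeR adjusted p = 0.0163), and the call was lost under the settings that ended those of the class II genes and by DESeq2. Its neighbours *Gzmd* and *Gzme* were high in E0771-Res1 replicate 1 (369 and 312 CPM) and in E0771-Res2 replicate 2 (234 and 178 CPM), and at or near 0 in the other mice.

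**Figure D5:**
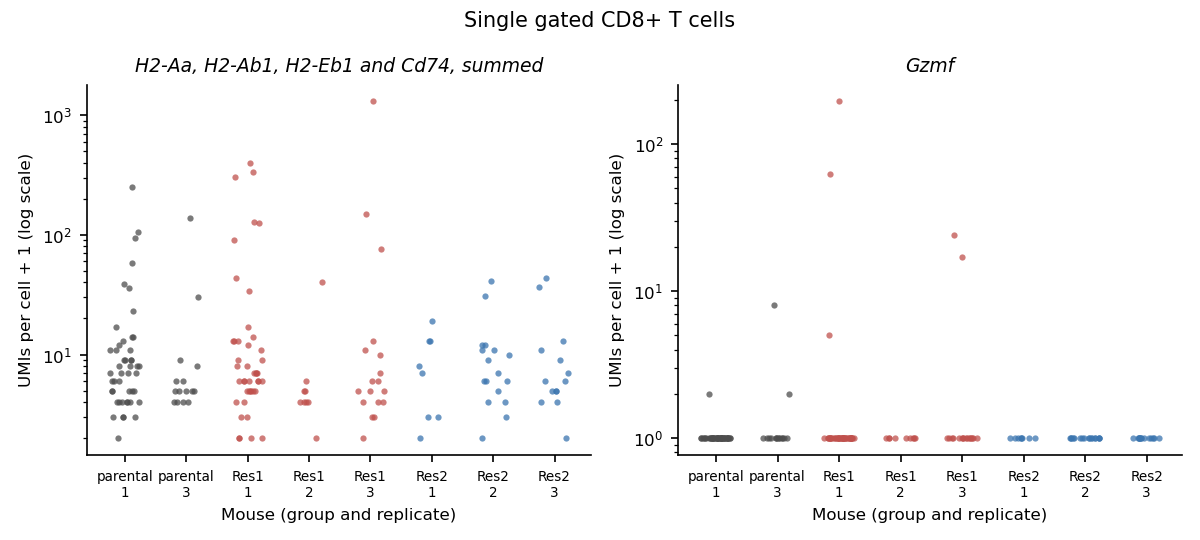
UMIs per gated CD8+ T cell of 4 MHC class II pathway genes (left) and of *Gzmf* (right) in each mouse, as UMIs + 1 on a log axis, with 1 point per cell. Single cells stand far above the others, the highest with 1304 class II UMIs in E0771-Res1 replicate 3 and 194 *Gzmf* UMIs in E0771-Res1 replicate 1.

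Whether any tumor difference was particular to CD8+ T cells was tested as an interaction with the CD4+ cells of the same mice. edgeR's quasi-likelihood test called 0 of 3216 genes (0%), and 126 had an unadjusted p under 0.05.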

How the data were processed

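Sorted CD45+ cells of 2 parental, 3 E0771-Res1 and 3 E0771-Res2 tumors were analysed; another parental mouse described by the study was not analysed here. The authors labeled cells with multiplexing oligonucleotides, pooled them, prepared Chromium 3′ libraries and deposited unnormalized UMI counts of 32285 genes and 9 tags per mouse, made with Cell Ranger 6.1.2 per the file headers; the submitters' notes name mm10 and Seurat. Tags stayed out of all sums.

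Cells with 500 to 6000 genes and under 10% mitochondrial counts were kept, then gated. No doublet caller was run. Counts were summed per mouse and gate, without mt-, Rpl, Rps, Gm and gate genes, and fitted with edgeR 4.0.16 (TMM, filterByExpr, quasi-likelihood test) in R 4.3.3 over mice with at least 10 cells; Benjamini-Hochberg adjusted p under 0.05 was a call. Permutation tests were exact and two-sided (scipy 1.17.1). Errors of log2 differences are SE. Intervals and floors (3 UMIs) cover counting error only.

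Named genes were those the study named for CD8+ T cells, 15 set effector and state genes, the 5 largest changes per direction without overlap between groups (or with the same sign in every mouse) and a mean of 5 log2 CPM or more, and called list members. The gate, members and lists were chosen with earlier results of these data known. Replicates within a group differed by more than counting noise (chi-square divided by its degrees of freedom, 2.09 to 4.00). The fits were tested on simulated data. Alternatives covered cell filters, gates, depth, tools (DESeq2 1.42.0), filters and left-out mice. Some named items are not reported here.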

Additional observations from a re-analysis of the deposited data

Results flagged for a closer look

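Of 52 groups of values tested, each over at least 4 mice, 5 held a mouse far from the others, and chance gives about 1 in 20. The share of thinned CD8+ cells with a *Tcf7* UMI was 0.0% in E0771-Res1 replicate 3, apart from the other 3 resistant mice. The CD8+ minus CD4+ difference of *Ifng* was 5.86 in log2 CPM in parental replicate 3, where the CD4+ cells had no *Ifng* UMI, and that of *Cxcr6* was 3.79 in the same mouse. In E0771-Res2 replicate 2 the difference of *Prf1* was -0.0278, where the 5 other mice showed higher *Prf1* in CD8+ cells, and that of *Ctla4* was -3.32.

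The resistant lines differed from each other, by the edgeR test of E0771-Res2 minus E0771-Res1, in *Cd74* (-2.52), *H2-Aa* (-2.65), *H2-Ab1* (-2.64), *H2-Eb1* (-3.20) and *Gzmf* (-9.79, a fitted value against a line without a UMI and so no measure of size). Single cells of high counts in E0771-Res1 mice moved with these values. Without E0771-Res1 replicate 3, which leaves 1 tested mouse of that line, *H2-Ab1* differed by -2.28. Its call between the lines was lost in 8 of 19 alternatives, among them a looser gate, no *Csf1r* limit and no cells of high depth.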

How the results depend on the processing

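The 3 cell number measures kept their direction in all settings run, but cells thinned to 2000 UMIs before gating moved them to -1.49 points of kept cells, -12.3 points of T cells and -1.44 CD8+ per CD4+ cell, with overlap between the groups in each. With no *Csf1r* limit (added after seeing the data) the share of kept cells differed by -2.51. Leaving out each mouse gave -2.88 to -1.17 points of kept cells, -25.3 to -21.7 points of T cells and -0.892 to -0.717 CD8+ per CD4+ cell.

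Gene counts were less steady. In the order resistant, E0771-Res1 and E0771-Res2 against parental, then E0771-Res2 against E0771-Res1, no filter on low counts gave 28, 35, 21 and 26 calls. The replicate block gave 73, 51, 71 and 49, and with mice of at least 5 cells (a block added after seeing the data) 1, 0, 16 and 7. Same-numbered mice correlated by -0.0139 to 0.225, so the numbers were not taken to pair mice. E0771-Res1 against parental had 0 calls with all deposited cells, a stricter or looser gate, no cells of high depth, no *Csf1r* limit (added), mitochondrial, ribosomal and Gm genes kept, or mice of at least 5 cells. E0771-Res2 against E0771-Res1 had 0 with a looser gate, little macrophage RNA, no cells of high depth, no *Csf1r* limit or mice of at least 5 cells, and 3 by DESeq2. A minimum of 20 cells was not run, as no E0771-Res2 mouse has them. Leaving out each mouse gave 0 to 10, 2 to 20, 0 to 5 and 2 to 17 calls, the highest each time without E0771-Res1 replicate 3; a lone mouse of a group was then assumed to vary like the others. CD8+ against CD4+ cells had 395 calls by DESeq2, 1054 without the filter, 297 with little macrophage RNA and 504 to 574 without a mouse. CD8+ against NK cells had 633, 170 and 214 to 326 for the last 3. The interaction had 2 without the filter. Single genes kept their call in 501 refits and lost it in 49, none turning sign. The cause was not tested.

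Of the shares of cells with a UMI, none called, that of *Ifng* kept its sign (2.14 to 16.5 points without a mouse), while others changed theirs. Thinned to 1000 UMIs, *Gzmb* differed by -0.0558, *Pdcd1* by -2.72 and *Havcr2* by 3.51 points. Unthinned, *Pdcd1* differed by -1.19 and *Havcr2* by 1.10. Without a mouse, *Pdcd1* ran from -9.42 to 11.9, *Havcr2* from -6.84 to 8.29, *Tcf7* from -3.25 to 3.72 and *Mki67* from -13.7 to 10.1. The 2 mice with 8 and 9 CD8+ cells were not in the gene and share tests of the report.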

Other observations

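T cell receptor segments could be read in part of the gated cells, since 3′ libraries seldom reach the variable part. A *Trbv* segment had a UMI in 53 of 172 cells (30.8%) and a *Trav* segment in 39. The 53 cells used 16 different *Trbv* segments, with *Trbv12-2* and *Trbv2* in 7 cells each (13.2%). In parental replicate 3 *Trbv15* was found in 5 of 9 cells with a segment (55.6%), against at most 3 of 10 for any segment in parental replicate 1 and 3 of 18 in E0771-Res1 replicate 1; the other mice had 5 or fewer such cells. That mouse also had the highest *Trbc1* level, 1540 CPM against 104 to 641 in the other 7. Such small numbers are given as values, and clones were not called.

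Among genes of tissue residence, *Itgae* was near 0 in these cells, *Zfp683* was absent from most mice and *Cd69* varied. *Itgae*, which encodes CD103, ran from 0 to 5.40 CPM over the 8 mice, and *Zfp683*, which encodes Hobit, had no UMI in 7 of them. *Cd69* ran from 86.4 CPM in parental replicate 3 to 316 in E0771-Res2 replicate 3.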
